A study of Mus musculus with 6 samples.

Results

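The genes described here encode the enzymes that release fatty acids from stored fat, the regulators of those enzymes, and the proteins that carry the products: the lipases Pnpla2, Lipe, Mgll and Pnpla3, the lipase regulators Abhd5 and G0s2, the fatty acid binding proteins Fabp4 and Fabp5, and the glycerol channel Aqp7. They were picked by symbol, by a rule that uses no measured value, but with earlier results of these data known, and these 9 of the 22609 genes listed were found in every sample. RNA came from primary white adipocytes, grown from stromal vascular cells of the inguinal (subcutaneous) fat of male C57BL6 mice and differentiated in culture. The labels give an age of 3 weeks. Control cells, labelled as control vector, received a mimic control, and the treated cells, labelled as miR182 overexpression, received a synthetic mimic of miR-182-5p, with 3 samples in each group. The term mimic comes from the methods of the study, and the labels do not say what was delivered beyond these names. The labels name electroporation as the delivery, whereas the methods of the study name a lipid reagent and an older age. The labels name no other cells in these cultures. The labels do not say whether the samples came from separate cell preparations, so p values measure the spread between these samples, which may be technical.

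Stored triglyceride is broken down in steps on the surface of the lipid droplet. Adipose triglyceride lipase (ATGL, encoded by Pnpla2) removes the first fatty acid, hormone-sensitive lipase (HSL, Lipe) acts mainly on the diglyceride that remains, and monoglyceride lipase (MGL, Mgll) splits the last ester bond. ABHD5 is the coactivator of ATGL and G0S2 is its inhibitor, FABP4 and FABP5 carry fatty acids through the cytosol, and aquaporin 7 lets glycerol leave the cell.

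The question of the comparison is how a miR-182-5p mimic changes the RNA of these genes. A miRNA pairs with its targets mainly through its seed, bases 2 to 8 from its 5′ end, and the site in an mRNA is the reverse complement of the seed. In GENCODE M21 on GRCm38, 1 of the 9 genes, Pnpla2, held such a site in its longest 3′-UTR, and this site is shown because it is the only one of its kind among the genes described. It lies at chr7:141460054-141460061 on the plus strand, from position 386 of the 1075 bases of the 3′-UTR, and matches 8 bases (TTGCCAAA, the reverse complement of the seed followed by an A). The mature miRNA from RefSeq (GRCm38.p6, chr6:30165962-30165986, minus strand) has its seed in capitals, and the stretch of the Pnpla2 3′-UTR (GRCm38, chr7:141460043-141460072) has the match in capitals, both written 5′ to 3′. The mature sequence printed for miR-182-5p in the methods of the study differs from that of RefSeq, and every match and count of matches given here rests on the RefSeq seed alone.
miR-182-5p: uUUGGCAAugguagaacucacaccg
Pnpla2 3′-UTR: attatttatttTTGCCAAAgcagatctaat
The 7-base match TTGCCAA, searched on the transcript strand, occurred 0 times in the 3′-UTRs of the other genes described, and the overlapping match TGCCAAA also occurred 0 times there. Mgll held 1 TTGCCAA in its coding sequence. Of 12514 genes tested that have an annotated 3′-UTR, 12.5% held TTGCCAA, 14.3% held TGCCAAA and 5.24% held the 8-base match. A match is a stretch of letters, and pairing of the mimic was not measured here.

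Reads counted on genes ranged from 25869810 to 26484794 with mimic control and from 25960631 to 28796712 with miR-182-5p mimic. Levels are given as CPM, read counts relative to the library size as scaled by edgeR's TMM method. Differences are log2 fold changes, mimic minus control. They were tested with the quasi-likelihood method of edgeR, with p values adjusted after Benjamini and Hochberg over 13117 genes, and a gene was called when the change was at least 1.5-fold and the adjusted p was under 0.05. The cells expressed adipocyte genes: the 12 adipocyte markers summed to between 11069 and 11701 CPM with mimic control and to between 7795 and 8831 CPM with the mimic. Fatty acid binding proteins are also made by macrophages, endothelial cells and epithelial cells, whose markers were low or at 0 here, apart from Krt19. The 12 macrophage markers summed to 15.3 to 16.5 CPM with mimic control and 12.96 to 17.1 CPM with the mimic, with Ptprc and Itgam at no more than 5 reads in any sample. Csf1r and Cd68 were the most abundant, and of 4 macrophage markers tested 1 was called lower (Lyz2, -0.63, called in 2 of 6 fits with 1 sample removed). The 9 endothelial markers summed to 9.07 to 10.3 CPM and 5.66 to 6.52 CPM, most of it from Tek and Kdr, with Cldn5 at 0 in every sample, and of 4 tested 1 was called lower (Tek, -1.31). The 8 epithelial markers summed to 22.6 to 23.7 CPM and 34.7 to 46.3 CPM, nearly all from Krt19 (called higher, 0.80), the 1 of them that could be tested, with Krt8, Krt14 and Krt18 at 0 in every sample. The 10 progenitor and fibroblast markers summed to between 39915 and 41707 CPM with mimic control and to between 34869 and 36060 CPM with the mimic, mostly from Col1a1 and Col3a1. The part of any of these marker changes in the results on the 9 genes was not tested.

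Of the 9 genes, Pnpla2, Mgll and Fabp4 were called lower with miR-182-5p mimic, each by close to 38% (37.9%, 38.2% and 37.7%). The background is that 5.48% of all genes tested were called lower and 7.45% were called in either direction. Fabp5, Abhd5 and G0s2 also fell, by 30.8%, 18.1% and 13.4%, with adjusted p values under 0.05 but changes short of 1.5-fold. For Lipe, Pnpla3 and Aqp7 the adjusted p was above 0.05, and the groups overlapped. No member was called higher, where 1.97% of all genes tested were. By adjusted p alone no member rose, where 23.2% of all genes tested did. The 6 genes that fell were also the 6 whose groups did not overlap, where 27.5% of all genes tested were lower without overlap and 27.3% were higher. The adjusted p alone was passed by 46.7% of all genes tested, 23.5% in the lower direction. Among the 6559 genes with a mean level at or above that of Aqp7, the lowest of the 9, 3.63% were called, 2.59% lower and 1.04% higher. Of these 6559 genes, 59.4% passed the adjusted p, 25.6% in the lower direction and 33.8% in the higher. Without overlap, 28.1% of them were lower and 38.2% were higher. The median log2 fold change of the 9 genes was -0.29, against -0.0043 for all genes tested.

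**Figure D1:**
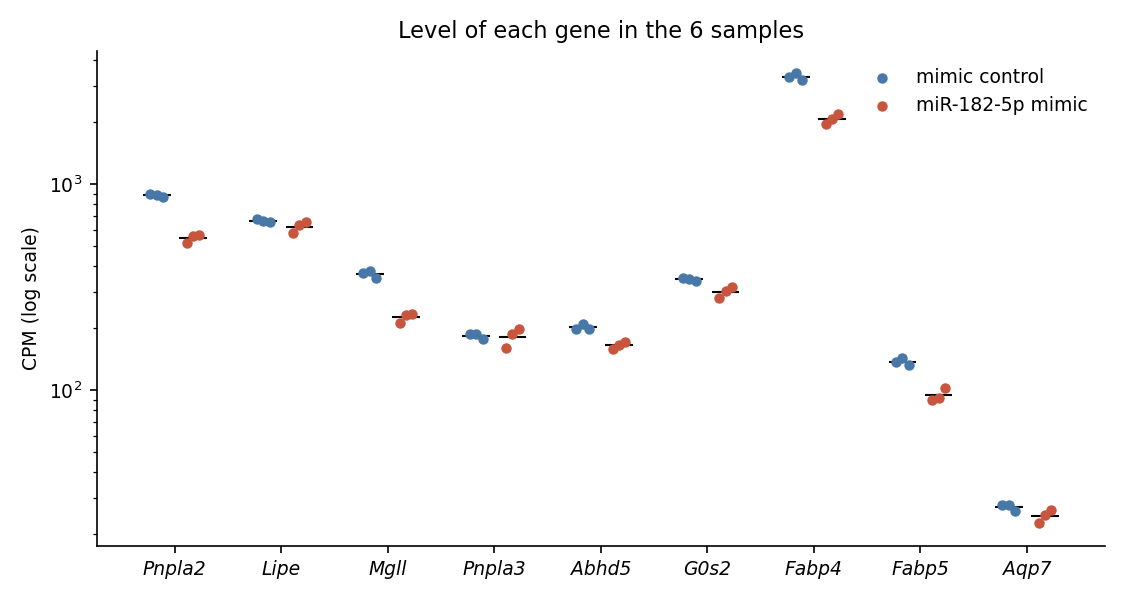
Level of each of the 9 genes in the 6 samples, in CPM on a log axis (blue, mimic control; red, miR-182-5p mimic; black lines, group means, n = 3). The mimic samples lie wholly below the control samples for Pnpla2, Mgll, Abhd5, G0s2, Fabp4 and Fabp5, and the groups overlap for Lipe, Pnpla3 and Aqp7.

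Among the lipases, Pnpla2 stood at 896, 889 and 869 CPM in mimic control replicates 1 to 3 and at 520, 561 and 567 CPM in mimic replicates 1 to 3. The highest mimic sample was well below the lowest control sample. Pnpla2 fell from 885 ± 13.9 to 549 ± 25.6 CPM (mean ± SD, n = 3), with a log2 fold change of -0.69 ± 0.034 (SE; edgeR, adjusted p = 1.71e-09). It ranked at 102 of 13117 genes by p and was lower in fold change than all but 4.51% of them. It was also called when the change was tested against the 1.5-fold line itself (edgeR's glmTreat, adjusted p = 0.0449), the only one of the 9 genes to pass that test. Pnpla2 carries the 8-base match shown above. Of the 656 genes tested with that match, 114 were called lower (17.4%), against 575 of 11858 without it (4.85%), and 91 had a lower fold change than Pnpla2. This is a description of genes that share a motif, and the part of the match in the change of Pnpla2 itself was not tested.

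Mgll, the enzyme of the last step, stood at 371, 379 and 348 CPM with mimic control and at 212, 232 and 234 CPM with the mimic. Every mimic sample was below every control sample. The level went from 366 ± 15.8 to 226 ± 11.9 CPM (SD, n = 3 each), with a log2 fold change of -0.70 ± 0.040 (SE; edgeR, adjusted p = 7.39e-09). Against the 1.5-fold line the adjusted p was 0.0716 by glmTreat. On the opposite strand, 167 of its 5077 exon bases are covered by another RNA gene that the lists do not hold.

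Lipe encodes the hormone-sensitive lipase between these steps. Its levels were 673, 661 and 652 CPM with mimic control and 578, 633 and 655 CPM with the mimic, so that the highest mimic sample lay above the lowest control sample. The means were 662 ± 10.8 and 622 ± 39.7 CPM (SD, n = 3 each), and the log2 fold change was -0.09 ± 0.040 (SE; edgeR, adjusted p = 0.0801). Without mimic replicate 3 the adjusted p was 0.0168, with upper-quartile scaling it was 0.0486, and with each sample removed in turn the log2 fold change ranged from -0.12 to -0.038. An RNA gene on the opposite strand, 4732471J01Rik, covers 918 of the 5886 exon bases of Lipe, but it was counted at 14 to 30 reads per sample, against 16687 to 18505 reads for Lipe.

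Pnpla3, a lipid droplet relative of ATGL, stood at 187, 187 and 176 CPM with mimic control and at 160, 188 and 198 CPM with the mimic. The mimic samples spanned the whole range of the controls. The means were 183 ± 6.27 and 182 ± 19.7 CPM (SD, n = 3 each), with a log2 fold change of -0.013 ± 0.058 (SE; edgeR, adjusted p = 0.879), and with each sample removed in turn it ranged from -0.074 to 0.074.

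**Figure D2:**
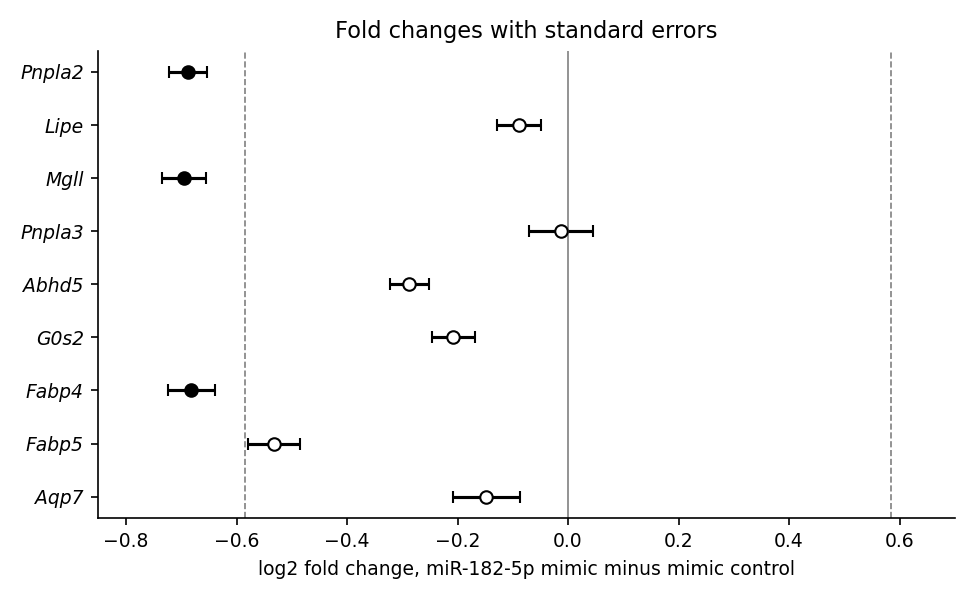
Log2 fold change of each gene, miR-182-5p mimic minus mimic control, with its standard error derived from the F statistic of edgeR (n = 3 per group). Filled points passed both cutoffs, and dashed lines mark a 1.5-fold change; Pnpla2, Mgll and Fabp4 lie beyond the lower line, Fabp5 lies just inside it, and Pnpla3 lies near 0.

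Both regulators of ATGL fell, by less than 1.5-fold. Abhd5, the coactivator, stood at 199, 209 and 198 CPM with mimic control and at 158, 166 and 172 CPM with the mimic, a log2 fold change of -0.29 ± 0.035 (SE; edgeR, adjusted p = 1.4e-05). G0s2, the inhibitor, stood at 351, 347 and 339 CPM and at 279, 303 and 316 CPM, a log2 fold change of -0.21 ± 0.039 (SE; edgeR, adjusted p = 0.000594). For both genes every mimic sample was below every control sample. Of the 5956 exon bases of Abhd5, 950 are covered on the opposite strand by an RNA gene that the lists do not hold.

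The balance between pairs of these genes was taken as the ratio of their read counts within a sample, which no scaling of libraries can change. The ratio of Pnpla2 to G0s2, the lipase over its inhibitor, was 2.55, 2.56 and 2.56 with mimic control and 1.86, 1.85 and 1.79 with the mimic. Its geometric mean fell by 28.3% (two-sided exact permutation, p = 0.1, which is the lowest value that 3 samples against 3 can give). The ratio of Lipe to Pnpla2 was 0.752, 0.743 and 0.750 with mimic control and 1.11, 1.13 and 1.16 with the mimic (two-sided exact permutation, p = 0.1). By reads, Pnpla2 thus exceeded Lipe in every control sample, and Lipe exceeded Pnpla2 in every mimic sample. This crossing is one of raw reads, which also depend on transcript length. Per kilobase of transcript, mean Pnpla2 stayed above mean Lipe, at 337 and 183 CPM with mimic control and at 209 and 172 CPM with the mimic. The ratio of Abhd5 to G0s2, the activator over the inhibitor, was 0.566, 0.604 and 0.584 with mimic control and 0.567, 0.550 and 0.544 with the mimic, and its groups overlapped (two-sided exact permutation, p = 0.2). These are 4 ratios, counted with that of the fatty acid binding proteins below, and with so few samples none can pass 0.05.

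**Figure D3:**
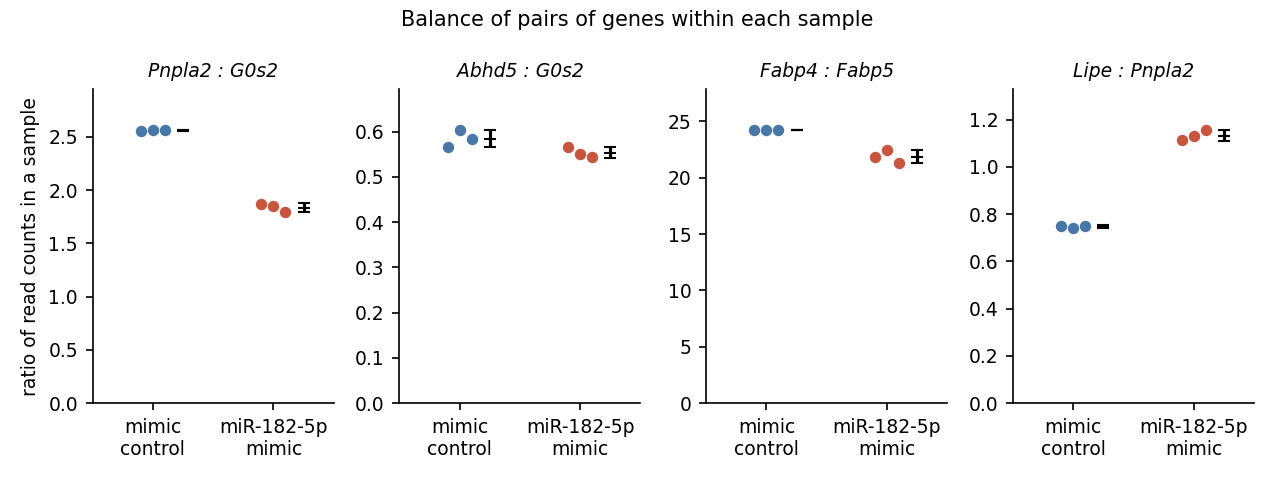
Ratio of read counts within each sample for 4 pairs of genes (points, samples; bars at the right of the points, mean and SD, n = 3 per group; axes start at 0). The groups are apart for Pnpla2 to G0s2, Fabp4 to Fabp5 and Lipe to Pnpla2, and overlap for Abhd5 to G0s2.

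The fatty acid binding proteins fell together. Fabp4, the adipocyte form, was the most abundant of the 9 genes, at 3305, 3452 and 3189 CPM with mimic control and at 1950, 2065 and 2187 CPM with the mimic. The groups did not overlap, and the log2 fold change was -0.68 ± 0.043 (SE; edgeR, adjusted p = 1.77e-08), and by glmTreat against the 1.5-fold line the adjusted p was 0.17. Fabp4 ranked at 23 to 24 among all genes by reads in the control samples and at 34 to 38 in the mimic samples. It held 54.1% ± 0.618 of the reads on the 9 genes with mimic control and 48.9% ± 0.389 with the mimic (SD, n = 3 each).

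Fabp5, the form shared with skin and macrophages, stood at 136, 143 and 132 CPM with mimic control and at 89.3, 92.0 and 103 CPM with the mimic. All mimic samples were lower, and the log2 fold change of -0.53 ± 0.047 (SE; edgeR, adjusted p = 5.36e-07) was just short of the 1.5-fold line at 0.585. Without mimic replicate 3 it was -0.59 and Fabp5 was called, which makes 4 genes called of 9. Of the 938 stretches of 50 bases in the Fabp5 transcript, 198 (21.1%) also occur in transcripts of other genes, among them Fabp5l2 and Gm6166. Reads from such stretches can align to several places, which the counting kept apart from the genes, so the level of Fabp5 may be too low in all samples. The ratio of Fabp4 to Fabp5 reads was 24.2 in each of the control samples and 21.8, 22.4 and 21.3 in the mimic samples. Its geometric mean fell by 9.77% (two-sided exact permutation, p = 0.1).

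Aqp7, the glycerol channel, had the lowest level of the 9 genes. It stood at 27.8, 27.7 and 26.0 CPM with mimic control and at 22.6, 24.9 and 26.1 CPM with the mimic, so that the groups just overlapped. The log2 fold change was -0.15 ± 0.061 (SE; edgeR, adjusted p = 0.0615). Without mimic replicate 3 the adjusted p was 0.0285, and with upper-quartile scaling it was 0.0439.

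Between genes, levels can be compared only per length, here as CPM per kilobase of the coding transcript with the longest 3′-UTR. The order below depends on that choice, which the SD between samples does not cover. All annotated exons together hold 3567 bases against 987 in that transcript for Fabp5, 4489 against 896 for Fabp4 and 5886 against 3613 for Lipe. Levels per kilobase of all exons were not taken. With mimic control Fabp4 led at 3700 ± 147, followed by G0s2 at 397 ± 6.85, Pnpla2 at 337 ± 5.29 and Lipe at 183 ± 3.00 CPM per kilobase (SD, n = 3 each). Pnpla3 (140 ± 4.78) and Fabp5 (139 ± 5.56) came next and did not differ beyond their spread, and Mgll (99.6 ± 4.29), Abhd5 (64.0 ± 2.05) and Aqp7 (12.6 ± 0.465) closed the order. With the mimic the order was the same, with the steps changed in size: Pnpla2 (209 ± 9.75) came nearer to Lipe (172 ± 10.98), and Fabp5 (96.0 ± 7.22) came to lie below Pnpla3 (139 ± 15.0) by more than their spread. All 9 genes together took 0.605%, 0.621% and 0.588% of the reads on genes with mimic control and 0.402%, 0.433% and 0.450% with the mimic. The mean share fell by 0.176 percentage points, and that of Fabp4 alone fell by 0.118.

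The mimic samples also differed among themselves in the same order for every gene described. All 9 genes were lowest in mimic replicate 1 and highest in mimic replicate 3 among the mimic samples, where 36.7% of all genes tested were lowest in replicate 1 and 33.1% were highest in replicate 3. The adipocyte markers were lowest in mimic replicate 1 for 12 of 12 genes and highest in replicate 3 for 9 of 12. Genes of one sample share its cells and its library, so these counts are no test. Mimic replicate 1 also stood further from the other mimic samples: the chi-square of the counts per degree of freedom, near 1 for sampling noise, was 5.01 and 7.19 in its pairs and 2.13 between replicates 2 and 3. Between pairs of control samples it was 3.10, 2.87 and 2.53. Without mimic replicate 1 the log2 fold changes of Pnpla2, Mgll and Fabp4 were -0.65, -0.65 and -0.64, and all 3 remained called. In cultures measured as a whole, fewer cells of a type and less RNA of a gene per cell cannot be told apart.

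**Figure D4:**
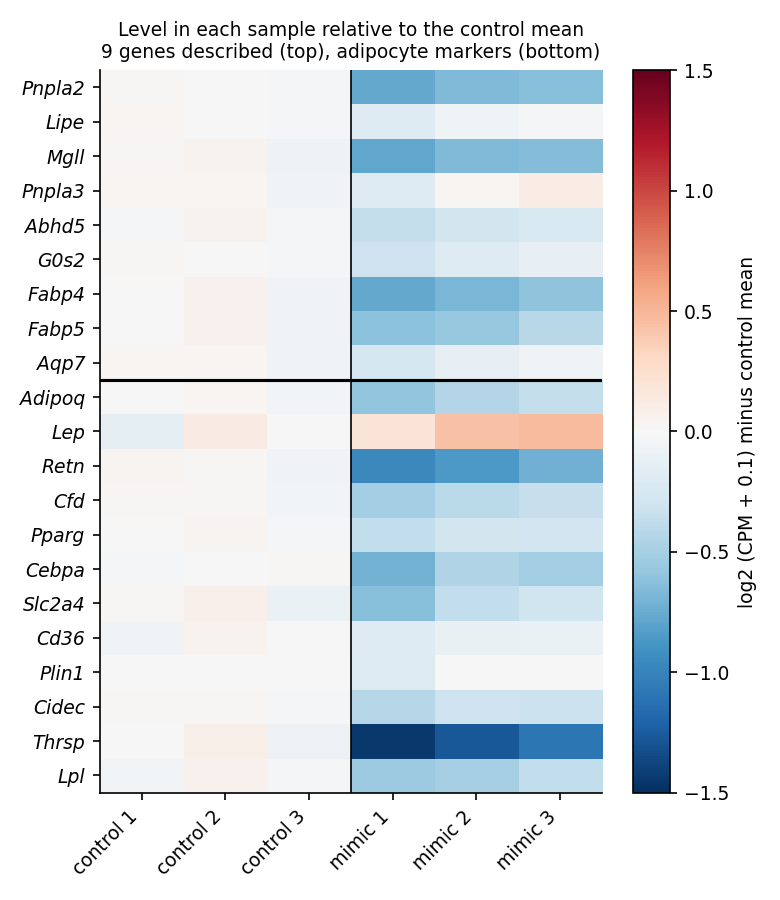
Level of the 9 genes (top) and of 12 adipocyte markers (bottom) in each sample, as log2 (CPM + 0.1) minus the mean of the 3 control samples (color scale, blue lower, red higher). Mimic replicate 1 is the lowest mimic sample for every gene shown, and Lep, alone among the markers, is higher in all mimic samples.

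The 12 adipocyte markers had a median log2 fold change of -0.43. Of these, 2 were called lower, Thrsp, a lipogenic regulator (-1.26), and Retn, which encodes resistin (-0.85), and 10 were lower by adjusted p alone, where 5.48% and 23.5% of all genes tested were. Lpl, the lipoprotein lipase (-0.47), and Cd36, a fatty acid translocase (-0.13), were the most abundant. Lpl, Adipoq, which encodes adiponectin (-0.46), and Pparg, the master regulator of adipocytes (-0.31), lay between the called lipases and Lipe, while Plin1, the droplet coat protein that guards ATGL's coactivator, was at -0.058 with an edgeR adjusted p of 0.316. Lep (0.37) was higher by adjusted p. Of the 9 progenitor markers tested, 5 were called lower, Cd34 (-1.53), Lum (-1.01), Pdgfra (-0.86), Pi16 and Dcn, against 5.48% of all genes tested, and the median was -0.64. Adipoq, Pparg, Plin1, Lep and the last of the 5 progenitor markers by p were named after their values were seen.

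Of 57 other genes of the lipolysis pathway, from receptors to the droplet surface, 56 could be tested, 0 were called higher and 7 were called lower, beside the 5.48% of all genes tested that were called lower. The last of them by p was Ces1f, a carboxylesterase, which was not called with DESeq2 or in 3 of 6 fits with 1 sample removed and was named after its values were seen. By adjusted p alone, 13 were higher and 20 were lower, where 23.2% and 23.5% of all genes tested were. The median log2 fold change of the list was -0.019. Among receptors that restrain lipolysis, Hcar2 (the niacin receptor, from 6.42 ± 0.0757 to 4.03 ± 0.535 CPM), Hcar1 (the lactate receptor, from 23.8 ± 1.77 to 15.1 ± 2.20 CPM) and the fatty acid receptor Ffar4 (from 4.85 ± 0.573 to 2.25 ± 0.213 CPM) were called lower, with log2 fold changes of -0.68, -0.65 and -1.11 (SD, n = 3 each). They are listed under the older symbols Niacr1, Gpr81 and O3far1. Hcar1 was not called without mimic replicate 1. Adora1, an adenosine receptor gene of the same kind, was higher by 0.24 (edgeR, adjusted p = 0.0054), and Ptger3 was at 0.41 with an edgeR adjusted p of 0.42; these 2 were named after their values were seen.

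Adenylyl cyclases make the cAMP that activates protein kinase A, a kinase that promotes lipolysis. Adcy6, an adenylyl cyclase, fell from 218 ± 0.482 to 94.6 ± 1.74 CPM (log2 fold change -1.21), and Prkacb, a catalytic subunit of protein kinase A, from 86.5 ± 1.26 to 51.5 ± 0.884 CPM (-0.75, SD, n = 3 each). Both were called lower, in every fit with 1 sample removed (6 of 6). Both hold the 8-base match to the seed in the 3′-UTR, Adcy6 at 2 places and Prkacb at 1. The other called genes of this list hold it at 0 places. Of these, Hcar1 holds 1 TGCCAAA, and Hcar2, Ffar4, Ces1d and Ces1f hold 0 of any of the 3 matches. The part of the match in these changes was not tested. Of the other cyclase genes, Adcy4 (-0.42) was lower by adjusted p, and Adcy3 (0.088), Adcy5 (-0.094) and Adcy9 (0.015) did not pass. Prkaca (-0.28) and Adrb3, the adrenoceptor of adipocytes (-0.27), were lower by adjusted p but short of 1.5-fold. Of the regulatory subunit genes, Prkar2a (0.45; edgeR, adjusted p = 6e-08) and Prkar1a (0.075) were higher by adjusted p, and Prkar2b (-0.098) was lower. Gnas, which encodes the stimulatory G protein, was at 0.038 with an edgeR adjusted p of 0.273. Ces1d, a carboxylesterase with lipase activity, had the lowest fold change of the list, from 5.67 ± 0.414 to 2.27 ± 0.278 CPM (log2 fold change -1.33).

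At the droplet surface, Plin4, a perilipin, rose from 739 ± 16.2 to 1043 ± 29.6 CPM (mean ± SD, n = 3), with a log2 fold change of 0.50 ± 0.031 (SE; edgeR, adjusted p = 1.63e-08). Plin5 (0.31) also rose by adjusted p, Plin2 (-0.12) fell, and Plin1 is given above. Cidec, which fuses droplets, fell (-0.36), and Hilpda, an inhibitor of ATGL, rose (0.37, listed as 2310016C08Rik). None of these reached 1.5-fold. The genes of this and the preceding paragraph that were not called were named after their values were seen.

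Of 22 genes that take up, activate and re-esterify fatty acids or handle glycerol, 21 could be tested, and 0 were called higher and 4 lower, with a median log2 fold change of -0.30 over the 21. Of all genes tested, 5.48% were called lower. By adjusted p alone, 2 were higher and 13 were lower, where 23.2% and 23.5% of all genes tested were. Acsl1, the main acyl-CoA synthetase of adipocytes, fell from 1059 ± 42.5 to 636 ± 52.2 CPM (log2 fold change -0.74), and Slc27a1, a fatty acid transporter, from 76.4 ± 3.24 to 46.1 ± 1.21 CPM (-0.73, SD, n = 3 each). The diglyceride acyltransferase genes Dgat1 (-0.66) and Dgat2 (-0.61), whose enzymes make the triglyceride that ATGL breaks down, were also called lower; Dgat2 lost its call without mimic replicate 1 and without mimic control replicate 2. Gyk, the glycerol kinase, was at 16.02 ± 1.41 and 16.1 ± 1.39 CPM and was named after its values were seen.

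Of 40 relatives of the 9 genes by family, 24 could be tested, and 2 were called lower, among them Abhd3 (-0.587, just beyond the line), a share near the 5.48% of all genes tested. Abhd3 kept its call in only 2 of 6 fits with 1 sample removed. Without mimic control replicate 2 the count was 2 lower, Crabp2 among them and Abhd3 not, and 1 higher, Fabp7. It was 3 lower without mimic replicate 3, with Abhd1 added, and 1 lower without mimic control replicate 1 or mimic replicate 2. By adjusted p alone, 2 relatives were higher and 14 were lower, against 23.2% and 23.5% of all genes tested. The median log2 fold change over the 24 was -0.21. Of the other fatty acid binding proteins, Fabp3 stood at 1.33 ± 0.406 and 1.14 ± 0.274 CPM (SD, n = 3 each), and Fabp1, Fabp2, Fabp6, Fabp9 and Fabp12 had no more than 5 reads in any sample. Aqp3 and Aqp9, which also encode glycerol channels, were at no more than 5 reads too, so of these 3 only Aqp7 had reads enough to be tested. Other aquaporin genes tested were Aqp1 (-0.50, edgeR, adjusted p = 8.11e-05), Aqp11 (-0.48, edgeR, adjusted p = 0.0413) and Aqp5 (-0.13, edgeR, adjusted p = 0.735). Aqp1 and Aqp11 were lower by adjusted p but short of 1.5-fold, and Aqp5 did not pass. The relatives other than Abhd3 were named after their values were seen.

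**Figure D5:**
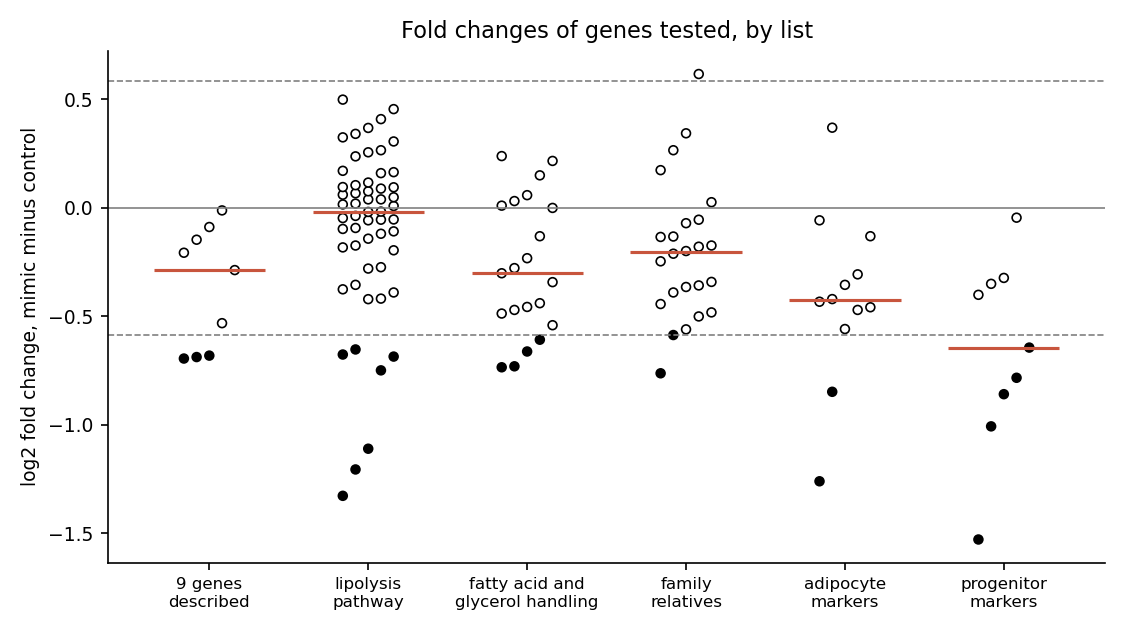
Log2 fold change, miR-182-5p mimic minus mimic control, of each gene tested in the 9 genes described, 3 lists of related genes and 2 lists of cell markers (points, genes; filled, past both cutoffs; red lines, medians; dashed lines, 1.5-fold). Every filled point lies below the lower line, and the medians run from -0.019 for the pathway list to -0.64 for the progenitor markers.

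Genes with the profile most like Pnpla2 over the 6 samples, by the root mean square distance of log2 CPM centered on each gene's mean, were Dgat1 (distance 0.023), Mknk2 (0.025) and Pld1 (0.025). For Fabp4 they were Cnnm3 (0.021), Mgll (0.025) and Acad11 (0.026), and for Lipe they were Nid2 (0.014), 1300001I01Rik (0.014) and Ezh2 (0.015). Mgll is itself one of the genes described, and Dgat1 is one of the fatty acid handling genes given above.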

How the data were processed

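Poly(A)-selected, strand-specific RNA libraries of 6 samples were analysed. Per sample, the authors deposited 1 list of gene symbols with unnormalized counts. The submitters' processing notes name bcl2fastq, TopHat2, HTSeq and mm9; versions, annotation and strand setting are not given in the sources used here. Each list ends with 5 tally lines, left out of totals and tests. Of uniquely placed reads, 12.7% to 13.0% were tallied as no feature and 0.652% to 0.667% as ambiguous. Counts were tested in R 4.3.3 with edgeR 4.0.16 (TMM, filterByExpr with a minimum count of 10, glmQLFTest, 2 groups, no block). Each SE of a log2 fold change was derived from this test, as the absolute change divided by the square root of its F statistic. On simulated counts for this comparison (13032 genes, 200 changed 2-fold in random directions), edgeR recovered 185 with 3 false calls. The data held more changed genes and smaller changes, so these numbers do not give the error of calls near 1.5-fold. Alternatives were DESeq2 1.42.0, limma-voom (limma 3.58.1), other size factors, filters and cutoffs, the replicate block and each sample left out. Permutation tests used scipy 1.17.1. GENCODE M21 (GRCm38) held 22198 of the 22609 symbols, 1907 of them through older symbols, and was used for lengths, overlaps and 3′-UTRs only. The deposited build is mm9, so annotated lengths and sites may differ from those behind the counts.

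The members, lists and tests were chosen with earlier results of these data known. Genes named are all 9 members, the called genes of each list (at most 6 a direction, by p), the 2 most abundant and up to 4 called genes of each marker list, and the 3 nearest profiles of Pnpla2, Lipe and Fabp4; any other gene was named after its values were seen. The brown or beige adipocyte marker list (8 genes, 6 tested) had 0 genes called by edgeR and a median log2 fold change of -0.21. By adjusted p alone 3 of them were lower, where 23.5% of all genes tested were. Cox7a1 and Prdm16 were the most abundant. The values of 1 called gene of the family relatives are not reported here.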

Additional observations from a re-analysis of the deposited data

How the results depend on the processing

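Pnpla2, Mgll and Fabp4 were called lower, and the other genes described were not, with DESeq2, limma-voom, DESeq2 or upper-quartile factors, without a filter, with a minimum of 10 counts per sample and the replicate block. Tested against the 1.5-fold line (glmTreat), 1 of the 9 was called, with Mgll at -0.70 and Fabp4 at -0.68; with a 2-fold cutoff 0 were called, and without a fold cutoff 6. These 3 settings move the line itself. Over all genes they gave 298, 280 and 6124 genes in place of 977, for the pathway list 4, 3 and 33 in place of 7, for fatty acid and glycerol handling 2, 0 and 15 in place of 4, and for the family relatives 0, 0 and 16 in place of 2. For the relatives, DESeq2, DESeq2 factors, limma-voom and the replicate block each gave 1, with Abhd3 no longer called. Same-numbered samples share only a number (their deviations correlated at -0.18, -0.044 and -0.079). Their block gave 925 genes over all genes, changed no call among the 9 genes and gave p = 0.25 for the ratios of Pnpla2 to G0s2, Fabp4 to Fabp5 and Lipe to Pnpla2 (exact permutation of 3 pairs, the smallest possible) and 0.5 for Abhd5 to G0s2. Leaving out each sample in turn gave 902 to 1011 genes, 3 to 4 of the 9, 6 to 7 pathway genes, 1 to 3 relatives (in either direction) and 3 to 4 handling genes. In these fits the ratios kept their direction, at -0.49 to -0.46, -0.10 to -0.055, -0.17 to -0.13 and 0.58 to 0.61 on the log2 scale in the order Pnpla2 to G0s2, Abhd5 to G0s2, Fabp4 to Fabp5 and Lipe to Pnpla2. The change in the share of reads ranged from -0.187 to -0.163 percentage points, and without Fabp4 it was -0.0581. Pnpla3 was at 0.0024, 0.00095 and 0.074 without mimic control replicate 1, mimic control replicate 2 and mimic replicate 1 and at -0.074 without mimic replicate 3, and its direction is not determined. Depth limits the genes under about 2 CPM, such as Fabp3 and Fabp7, more than the 9 genes, which had at least 656 reads in every sample.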
